A study of Mus musculus with 6 samples.

Results

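The 39 genes described here build and start the DNA replication machinery or supply it, among them the MCM helicase subunits, the replicative polymerases, the sliding clamp and its loader, the enzymes of deoxynucleotide supply and the G1/S regulators. They were taken by symbol from the deposited table of raw counts, in which 39 of 39 were among 15528 listed genes. They were listed by function, with earlier results of these data known. RNA was sequenced from mouse cells that the labels call lymphatic endothelial cells, in 3 control libraries with no treatment label and 3 libraries treated with red blood cells, each labelled 24 h. The labels give no strain, genotype, age of donor animals, number of cells or source of the red blood cells, and the title of the series refers to subarachnoid hemorrhage in mice. The labels do not say whether the 3 libraries of a group came from separate cultures, so the tests weigh differences only against library-to-library spread, which may be technical in origin.

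Before S phase, the origin recognition complex, Cdc6 and Cdt1 load the MCM helicase onto DNA in an inactive form. Kinases then trigger the binding of Cdc45 and the GINS complex, which turns the loaded MCM ring into a moving helicase, and polymerases alpha, delta and epsilon copy the opened strands with the help of the clamp Pcna. Many of these genes are transcribed together late in G1 under E2F transcription factors, so their summed RNA level is widely read as a sign of how much of a culture is cycling. In bulk RNA, more cells in S phase and more RNA of these genes per cell cannot be told apart.

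The libraries held 17263359 to 18381419 counts over all listed genes, and a member had between 129 and 14652 counts in a library. Control replicate 2 stood apart: over 7058 genes of at least 25 CPM (counts scaled to the total of the library), its root mean square log2 distance from the mean of the other libraries of its group was 0.261, against 0.137 and 0.152 for the other 2 controls and 0.0622 to 0.0688 for the treated libraries. The tests between the groups were therefore run with all 6 libraries and without that control. Levels, sums and counts of separated libraries are given for all 6. The cell type label rests on few markers here: of 10 lymphatic endothelial markers 4 had enough counts to be tested (Flt4, Nrp2, Nr2f2 and Stab1), Prox1 and Lyve1 are not among the listed symbols, and the general endothelial genes Cdh5, Kdr and Vwf were below 0.4 CPM in each library. Eng and Pecam1, also general endothelial genes, were at 89.9 to 104.8 and 13.1 to 16.8 CPM. Krt8, an epithelial keratin, was at 382.7 to 483.8 CPM and Col1a2, a fibrillar collagen chain, at 434.6 to 481.2 CPM. Of the other epithelial, mesothelial, fibroblast and mural markers, Krt18 was at 31.4 to 53.1, Msln at 185.0 to 194.0 and Pdgfra at 6.69 to 12.8 CPM. The remaining listed ones, Col1a1 and Cdh1 among them, reached at most 0.985 CPM.

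The replication genes were abundant in every library. On the FPKM scale, which divides by gene model length as well as by library total and so allows genes to be compared, 38 of the 39 members averaged at least 10 FPKM over the 6 libraries and 8 averaged at least 100 FPKM. The median member was at 42.4 FPKM, against 10.6 FPKM for the median tested gene. Pcna, which encodes the ring that holds polymerases on DNA, had the highest level at 277.8 ± 25.7 FPKM (SD, n = 6). It was followed by the helicase subunit Mcm5 at 211.9 ± 9.21 FPKM and by Rrm1, the large subunit of ribonucleotide reductase, at 190.8 ± 5.05 FPKM. The upper order was clear of the spread between Pcna and Mcm5, while Mcm2 and Mcm6, both at 106.0 FPKM (SD 4.45 and 1.88), could not be ranked. The 3 lowest members were E2f2, one of the E2F activators, at 1.58 ± 0.11 FPKM, the loading factor Cdc6 at 14.3 ± 0.603 FPKM, and the origin recognition subunit Orc1 at 14.5 ± 0.509 FPKM. Cdc6 and Orc1 did not differ in level beyond their spread, and Cdc6, the lowest member but E2f2, still exceeded 58.5% of the tested genes.

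**Figure D1:**
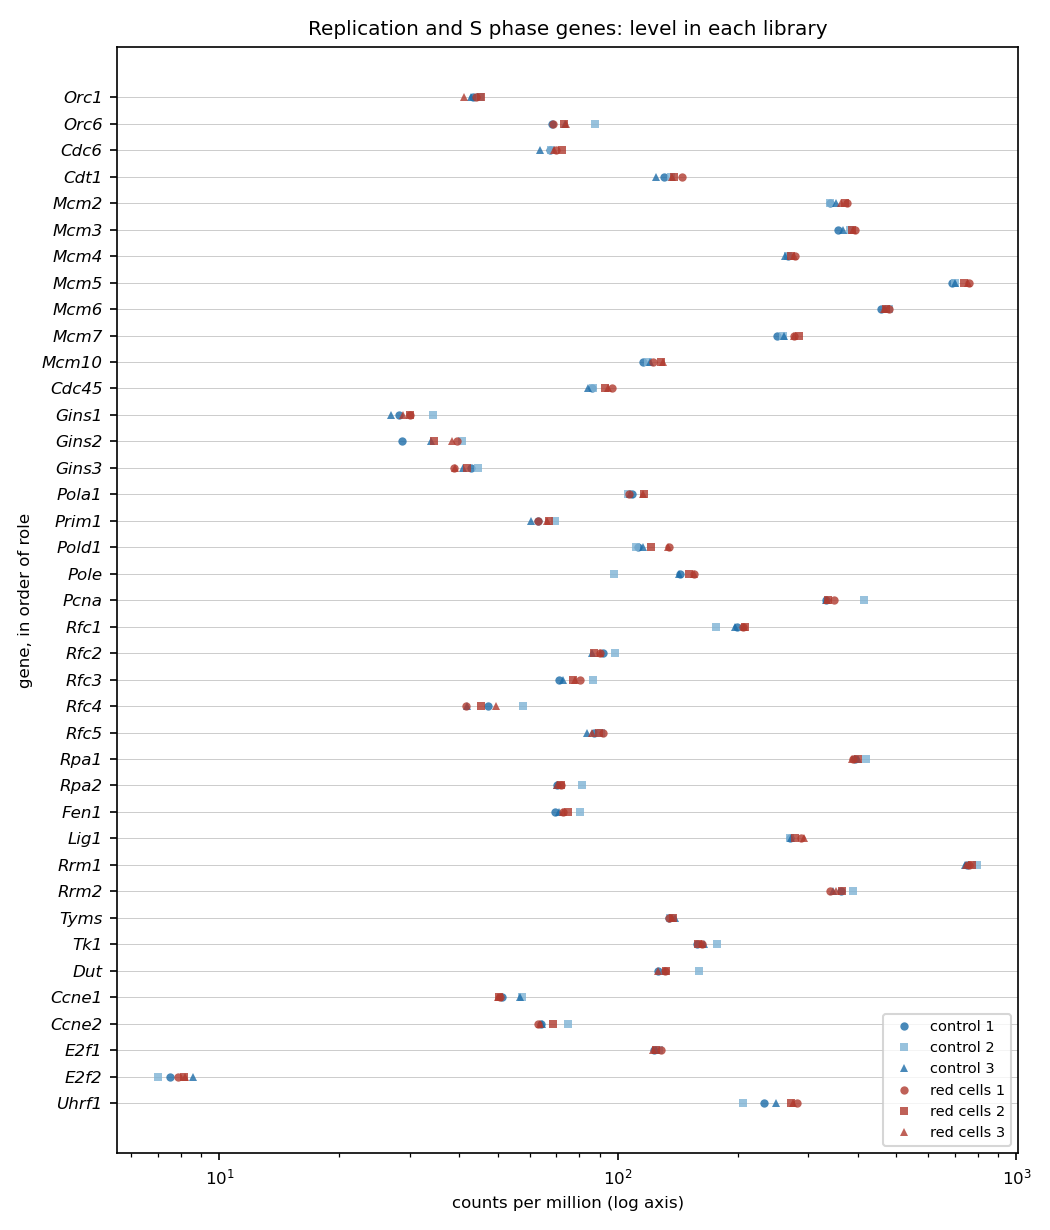
Level of each of the 39 replication genes in each library, in CPM on a log axis, grouped by role, with one point for each control and each treated library. Apart from E2f2, which sat between 7.02 and 8.58 CPM, the members spanned a range from 26.9 to 797.1 CPM, and the points of a gene lay close together beside the differences between genes.

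The 6 subunits of the MCM ring, which are loaded together in equal numbers, lay within a 2.81-fold range of FPKM, from Mcm4 at 75.5 FPKM to Mcm5 at 211.9 FPKM. Summed over the 39 members, the level was 7039, 7382 and 7106 CPM in control replicates 1 to 3 and 7417, 7396 and 7362 CPM in the treated replicates. The group means were 7176 ± 181.8 and 7392 ± 27.8 CPM (SD, n = 3), and the controls overlapped the treated range only through replicate 2. The members therefore took 0.704% to 0.742% of the counts of a library.

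Short stretches of promoter are shown because E2F sites are known from the promoters of many replication genes, and no value of the expression tables was used to find them. The promoter table of RefSeq (build GRCm38.p6, 250 bases before to 50 bases after the annotated start) held 33 of the 39 members. The letters TTTCCCGC, TTTCGCGC, TTTGCCGC and TTTGGCGC were searched on both strands. One of them was present in 14 of 33 members (42.4%), against 2.6% of 27025 symbols in the table, 4.91% of 9024 tested symbols and 1 of 17 mitosis genes (5.88%). These shares count matches on either side of the start, and in 9 of the 14 members a match lay wholly before it. Of the 12 member matches before the start, 4 lay within 100 bases of it. The letters CCAAT were present on either strand in 21 of 33 replication genes (63.6%), in 15 of 17 mitosis genes (88.2%), which peak later in the cycle, and in 43.8% of tested symbols. A match describes letters and is not a measured binding site. In the windows of 50 bases that follow, read 5′ to 3′ on the strand of the gene, capitals mark the matched letters. Mcm5 (chr8:75109335-75109384, plus strand) and Mcm6 (chr1:128359787-128359836, minus strand) each hold an overlapping pair of matches on opposite strands. Uhrf1 (chr17:56304107-56304156, plus strand) holds 1 match on the gene's strand. Cdc6 (chr11:98907992-98908041, plus strand) and Orc1 (chr4:108579404-108579453, plus strand) hold 1 each on the opposite strand. The paired matches lay 153 and 149 bases before the annotated start in Mcm5 and 110 and 106 bases before it in Mcm6. The single matches lay 185 bases before it in Uhrf1, 138 in Cdc6 and 27 in Orc1. In Mcm5 and Mcm6, and also in E2f2, no transcript was found to begin at the annotated start. Positions relative to the start are therefore less certain in these genes.
Mcm5: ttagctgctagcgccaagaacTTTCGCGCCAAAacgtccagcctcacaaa
Mcm6: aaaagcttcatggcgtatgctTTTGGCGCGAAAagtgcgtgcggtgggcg
Uhrf1: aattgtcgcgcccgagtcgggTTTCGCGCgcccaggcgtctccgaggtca
Cdc6: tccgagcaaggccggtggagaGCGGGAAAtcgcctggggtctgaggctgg
Orc1: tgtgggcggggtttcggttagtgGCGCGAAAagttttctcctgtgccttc

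With all 6 libraries, no replication gene passed the test after treatment with red blood cells. The test was edgeR's quasi-likelihood test with Benjamini-Hochberg adjustment over 11208 genes, called at an adjusted p under 0.05. It called 0 of 39 members, against a background of 1.46% of tested genes called in either direction. At an unadjusted p under 0.05, 4 members were higher (Cdc45, Mcm7, Pold1 and Uhrf1) and 0 were lower. Among the 11208 tested genes, 607 were higher and 513 lower at that threshold. DESeq2 called 0 members, limma voom 0 and limma voom with sample weights 3 (Cdc45, Pold1 and Uhrf1). With sample weights, 3.23% of all tested genes were called higher. The smallest adjusted p was that of Uhrf1, at 0.1753. Fitted log2 fold changes ran from -0.13 for Ccne1 to 0.27 for Uhrf1. Their 95% intervals, which measure precision and not the size of a difference, had a median half-width of 0.14. The widest bounds were -0.37 for Rfc4 and 0.56 for Pole on the log2 scale. The median log2 fold change of the members was 0.03, against -0.0027 over all tested genes, with 22 members above 0 and 17 below.

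Separation of the libraries was more frequent than the calls. In 14 of the 39 members (35.9%) each of the 3 treated libraries lay above each of the 3 controls, against 10.4% of tested genes. Treated libraries lay below each control in 1 member, Ccne1, against 9.19% of tested genes. The 14 were Cdc6 and Cdt1 of licensing, Mcm2, Mcm3, Mcm4, Mcm5 and Mcm7 of the helicase, its partners Mcm10 and Cdc45, the polymerase subunits Pold1 and Pole, the clamp loader subunit Rfc1, the ligase Lig1, and Uhrf1.

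Without control replicate 2, 8 members rose and none fell. They were the loading factor Cdt1, the helicase subunits Mcm3, Mcm5 and Mcm7, the helicase activators Cdc45 and Gins2, the catalytic subunit of polymerase delta Pold1, and Uhrf1, which brings maintenance DNA methylation to newly copied strands. They were 7.77% to 19.1% higher in the 3 treated libraries than in the remaining 2 controls. These 8 are 20.5% of the members, against 4.19% of 11297 tested genes called higher and 3.77% called lower. Among genes of at least 25 CPM, a level reached by 38 of the 39 members, 4.49% were called higher. At an unadjusted p under 0.05, 14 members were higher and 0 lower, against 1080 higher and 1107 lower among the 11297 tested genes. The median log2 fold change was 0.06, against -0.0004 over all tested genes, and 33 members (84.6%) were above 0, against 49.8% of tested genes. A shift of this size was also seen in the omitted control. Relative to control replicates 1 and 3, control replicate 2 had a median of 0.08 over the members, with 30 of 39 above their mean. The 8 genes had positive values with all 6 libraries too, from 0.08 to 0.27 on the log2 scale, with adjusted p from 0.1753 to 0.7285. In 7 of them the treated libraries lay above all 3 controls, the exception being Gins2. With DESeq2, 5 of the 8 were called, and limma on log2(FPKM + 1) called 1, Uhrf1. Over all tested genes, these settings called 2.01% and 2.38% higher.

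**Figure D2:**
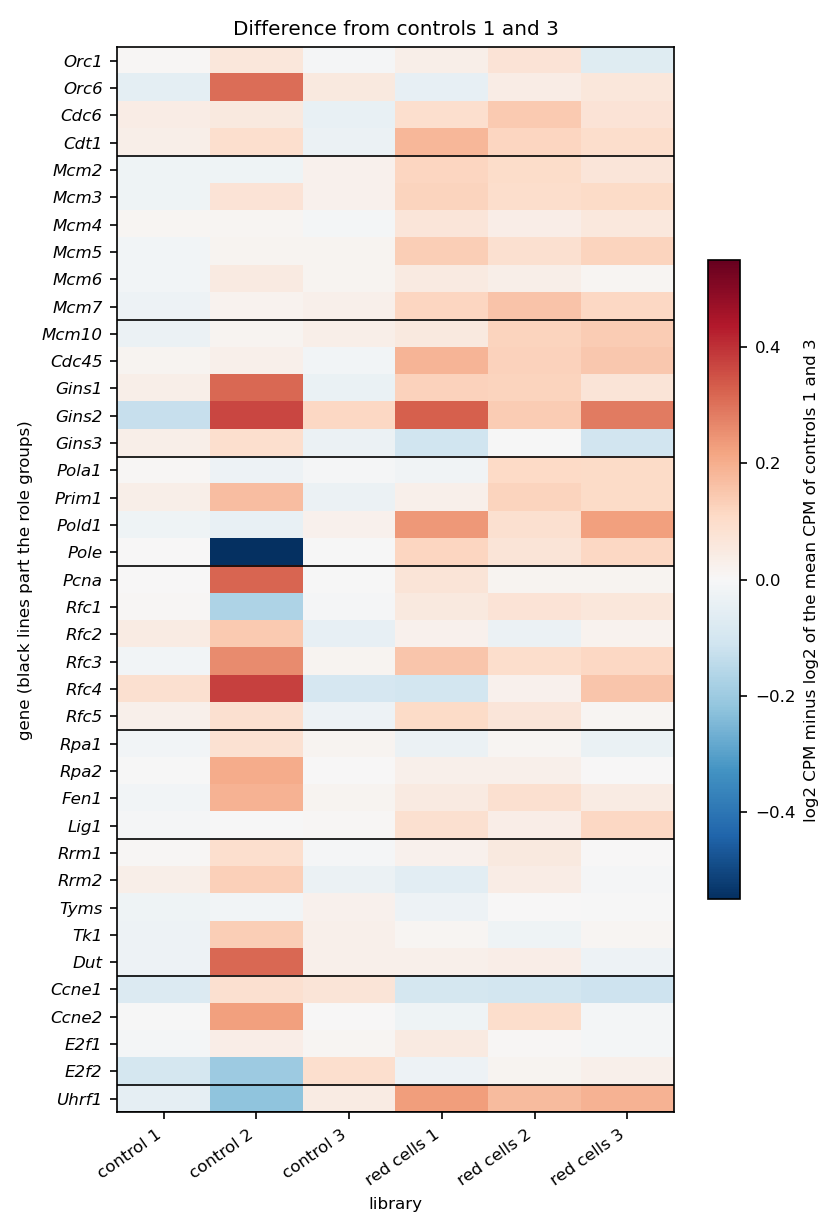
Log2 difference of each replication gene in each library from the mean of control replicates 1 and 3, as a heat map with genes grouped by role. The 3 treated columns resemble each other, with medians of 0.06 to 0.07 over the members. The column of control replicate 2 has a median of 0.08. It holds both the highest and the lowest values, from -0.55 for Pole to 0.37 for Rfc4.

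Among the licensing factors, Cdt1 was at 130.6, 136.2 and 124.9 CPM in the controls and at 145.2, 138.5 and 136.7 CPM in the treated libraries. The groups did not overlap, although control replicate 2 came within 1 CPM of the lowest treated library. Its log2 fold change was 0.10 ± 0.06 (SE) with all 6 libraries and 0.13 ± 0.04 without control replicate 2 (adjusted p = 0.0171, edgeR), and the call was lost without control replicate 3 (adjusted p = 0.2186), without treated replicate 1 (0.1146) and with DESeq2 (0.1415). Cdc6, which loads the MCM ring together with Cdt1, was at 67.4, 68.1 and 63.7 CPM in the controls and 69.8, 72.4 and 69.0 CPM after treatment. Its groups did not overlap either, and it did not pass the test in either comparison (log2 fold change 0.10 ± 0.05 and adjusted p = 0.2007 without control replicate 2). Orc1 was at 43.4, 45.0 and 42.9 CPM in the controls and 44.1, 45.4 and 41.2 CPM after treatment, so the groups overlapped fully. Orc6, the smallest origin recognition subunit, was at 87.8 CPM in control replicate 2 and between 68.4 and 74.1 CPM in the other 5 libraries.

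Of the MCM helicase subunits, 3 of 6 rose without control replicate 2, and all 6 had positive log2 fold changes in both comparisons, with medians of 0.09 and 0.10. Without that control, 4.19% of the 11297 tested genes were called higher, and 1080 were higher and 1107 lower at an unadjusted p under 0.05. These background values also belong beside the counts by role below. Mcm5 was at 687.6, 701.5 and 701.0 CPM in the controls and at 762.1, 737.9 and 754.8 CPM in the treated libraries, a clear gap between the groups. Its log2 fold change was 0.11 ± 0.05 with all 6 libraries and 0.11 ± 0.03 without control replicate 2 (adjusted p = 0.0068, edgeR). Mcm7 was at 250.4, 258.8 and 260.7 CPM against 277.3, 284.7 and 276.3 CPM, again without overlap. Its log2 fold change was 0.12 ± 0.05 with all 6 libraries and 0.13 ± 0.03 without control replicate 2 (adjusted p = 0.0066). Mcm3 was at 356.3, 381.6 and 367.2 CPM against 394.1, 386.6 and 388.7 CPM. Here control replicate 2 was the control nearest to the treated libraries, and the log2 fold change was 0.08 ± 0.05 with it and 0.11 ± 0.03 without it (adjusted p = 0.0201). Beside control replicate 2, leaving out control replicate 1 as well ended the call of Mcm3 (adjusted p = 0.3095), Mcm5 (0.1425) and Mcm7 (0.2169), and Mcm3 also lost it without treated replicate 1 (0.0549) or 3 (0.0578). Mcm2 (log2 fold change 0.09, adjusted p = 0.0586), Mcm4 (0.05, adjusted p = 0.3985) and Mcm6 (0.03, adjusted p = 0.6800) did not pass without control replicate 2. Whether the 6 subunits differed from each other in response was not tested.

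Of the 5 factors that activate the loaded helicase, Cdc45 and Gins2 rose without control replicate 2. Cdc45, which joins the ring when an origin fires, was at 86.1, 86.8 and 84.1 CPM in the controls and 96.8, 92.8 and 94.2 CPM after treatment. The 3 controls lay within 3 CPM of each other and below each treated library, and the log2 fold change was 0.14 ± 0.05 with all 6 libraries and 0.15 ± 0.04 without control replicate 2 (adjusted p = 0.0144). The call was lost with DESeq2 (adjusted p = 0.1410), without control replicate 3 (0.1253) and without treated replicate 1 (0.0717). Gins2, a subunit of the GINS complex that binds the ring beside Cdc45, was at 28.8, 40.5 and 34.0 CPM in the controls and 39.4, 34.6 and 38.3 CPM after treatment. Its highest library of all was control replicate 2, and its log2 fold change went from 0.12 ± 0.12 to 0.25 ± 0.07 when that library was left out (adjusted p = 0.0072). That call rested on control replicate 1, without which the log2 fold change was 0.14 (adjusted p = 0.4180), and DESeq2 did not make it (0.1618). The other GINS subunits had log2 fold changes of 0.11 (Gins1, adjusted p = 0.3988) and -0.07 (Gins3, adjusted p = 0.5758), and Mcm10, an origin firing factor, had 0.11 (adjusted p = 0.0944).

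Of the 4 polymerase and primase genes, Pold1 rose without control replicate 2. Pold1, whose enzyme synthesises mostly the lagging strand, was at 112.0, 110.8 and 115.7 CPM in the controls and at 134.2, 121.0 and 133.3 CPM in the treated libraries. The groups did not overlap, and control replicate 2 lay close to the other controls. Its log2 fold change was 0.20 ± 0.06 with all 6 libraries (adjusted p = 0.2681) and 0.19 ± 0.04 without control replicate 2 (adjusted p = 0.0011). Pole, the catalytic subunit of the leading strand polymerase, is named because of its values: it was at 143.5, 97.8 and 142.7 CPM in the controls and 155.3, 150.5 and 154.8 CPM after treatment. Control replicate 2 lay far below the other 5 libraries, and the log2 fold change fell from 0.26 ± 0.13 to 0.10 ± 0.04 without it (adjusted p = 0.0778). Pola1, which extends the first primers, and Prim1, the primase that makes them, had log2 fold changes of 0.07 (adjusted p = 0.4107) and 0.09 (adjusted p = 0.3263) without control replicate 2.

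None of the 6 clamp and clamp loader genes passed in either comparison, with 1 at an unadjusted p under 0.05 without control replicate 2 and 0 with all 6 libraries. Pcna was at 332.7, 415.0 and 331.8 CPM in the controls and 348.8, 336.2 and 335.5 CPM after treatment. Control replicate 2 was the highest library, and the other 2 controls lay just below the treated range, so that the log2 fold change was -0.08 ± 0.09 with it and 0.03 ± 0.03 without it (adjusted p = 0.6485). Rfc1, the large subunit of the complex that opens the clamp, was at 199.0, 175.8 and 197.0 CPM against 205.4, 208.9 and 207.0 CPM. The groups did not overlap, and the adjusted p was 0.5583 with all 6 libraries and 0.2908 without control replicate 2. The small subunits Rfc2, Rfc3, Rfc4 and Rfc5 had log2 fold changes of 0.0055 to 0.12 without control replicate 2, the highest being Rfc3 (adjusted p = 0.0959).

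The genes that coat single strands and seal the new ones did not pass either, 0 of 4 in both comparisons (0 with all 6 libraries and 1 without control replicate 2 at an unadjusted p under 0.05). Lig1, the ligase that joins Okazaki fragments, was at 270.1, 270.5 and 271.8 CPM in the controls and 287.8, 277.7 and 293.4 CPM after treatment. The controls were nearly equal and lay below each treated library, with a log2 fold change of 0.08 ± 0.05 with all 6 libraries (adjusted p = 0.6253) and 0.08 ± 0.03 without control replicate 2 (adjusted p = 0.1483). The flap nuclease Fen1 had a log2 fold change of 0.06 without control replicate 2 (adjusted p = 0.5180). The single-strand binding subunits Rpa1 and Rpa2 had -0.02 (adjusted p = 0.8384) and 0.02 (adjusted p = 0.8786).

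The 5 genes of deoxynucleotide supply were not called in either comparison, with none at an unadjusted p under 0.05. Their log2 fold changes were all negative with all 6 libraries (median -0.05) and lay between -0.01 and 0.03 without control replicate 2, where the 95% intervals of all 5 fell between -0.09 and 0.09. Rrm1, whose product turns ribonucleotides into deoxynucleotides, was at 750.0, 797.1 and 744.4 CPM in the controls and 758.6, 775.2 and 749.2 CPM after treatment. Dut, which keeps uracil out of DNA by cleaving dUTP, was at 126.2, 160.1 and 130.9 CPM in the controls and 130.9, 131.8 and 126.0 CPM after treatment. In both genes control replicate 2 was the highest library and the other 2 controls overlapped the treated ones. The log2 fold change of Dut was -0.10 ± 0.09 with that control and 0.01 ± 0.04 without it (adjusted p = 0.9203). Rrm2, the small reductase subunit, the thymidylate synthase Tyms and the thymidine kinase Tk1 had adjusted p of 0.9508, 0.9238 and 0.9981 without control replicate 2.

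None of the 4 members that control entry into S phase passed, with none at an unadjusted p under 0.05. Ccne1 encodes cyclin E1, the partner of Cdk2 at the G1/S transition, and was at 51.3, 57.5 and 56.8 CPM in the controls and 50.6, 50.4 and 49.9 CPM after treatment. It was the only member with all treated libraries below all controls, by less than 1 CPM beside control replicate 1, with a log2 fold change of -0.13 ± 0.06 (adjusted p = 0.5427) and of -0.10 ± 0.05 without control replicate 2 (adjusted p = 0.2687). The related cyclin Ccne2 had a log2 fold change of 0.02 without control replicate 2 (adjusted p = 0.8779). The activator E2f1 was at 122.7 to 128.2 CPM in all 6 libraries, with a 95% interval of -0.06 to 0.09 for its log2 fold change without control replicate 2. E2f2 was at 7.53, 7.02 and 8.58 CPM against 7.89, 8.13 and 8.22 CPM. The groups overlapped, and the interval without control replicate 2, from -0.23 to 0.24, was wider than that of E2f1.

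Uhrf1 had the smallest p of all members in both comparisons. It was at 232.7, 206.2 and 248.6 CPM in the controls and at 282.2, 271.5 and 274.5 CPM in the treated libraries, so the groups were separated by more than 20 CPM. The log2 fold change was 0.27 ± 0.07 with all 6 libraries (adjusted p = 0.1753) and 0.20 ± 0.03 without control replicate 2 (adjusted p = 2.1e-05, edgeR), a value that moved down because control replicate 2 held the lowest level. Uhrf1 and Pold1 kept their calls without control replicate 2 when any 1 of the other 5 libraries was left out as well, a set of alternatives chosen after the data had been seen. Of the members called without control replicate 2 and present in the promoter table, 6 of 7 (85.7%) held the E2F letters, namely Cdt1, Mcm3, Mcm5, Mcm7, Pold1 and Uhrf1, against 8 of 26 uncalled members. In Cdt1, Mcm3 and Pold1, and in the uncalled E2f2 and Lig1, the matches lay only after the annotated start. A link between the letters and the calls was not tested.

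**Figure D3:**
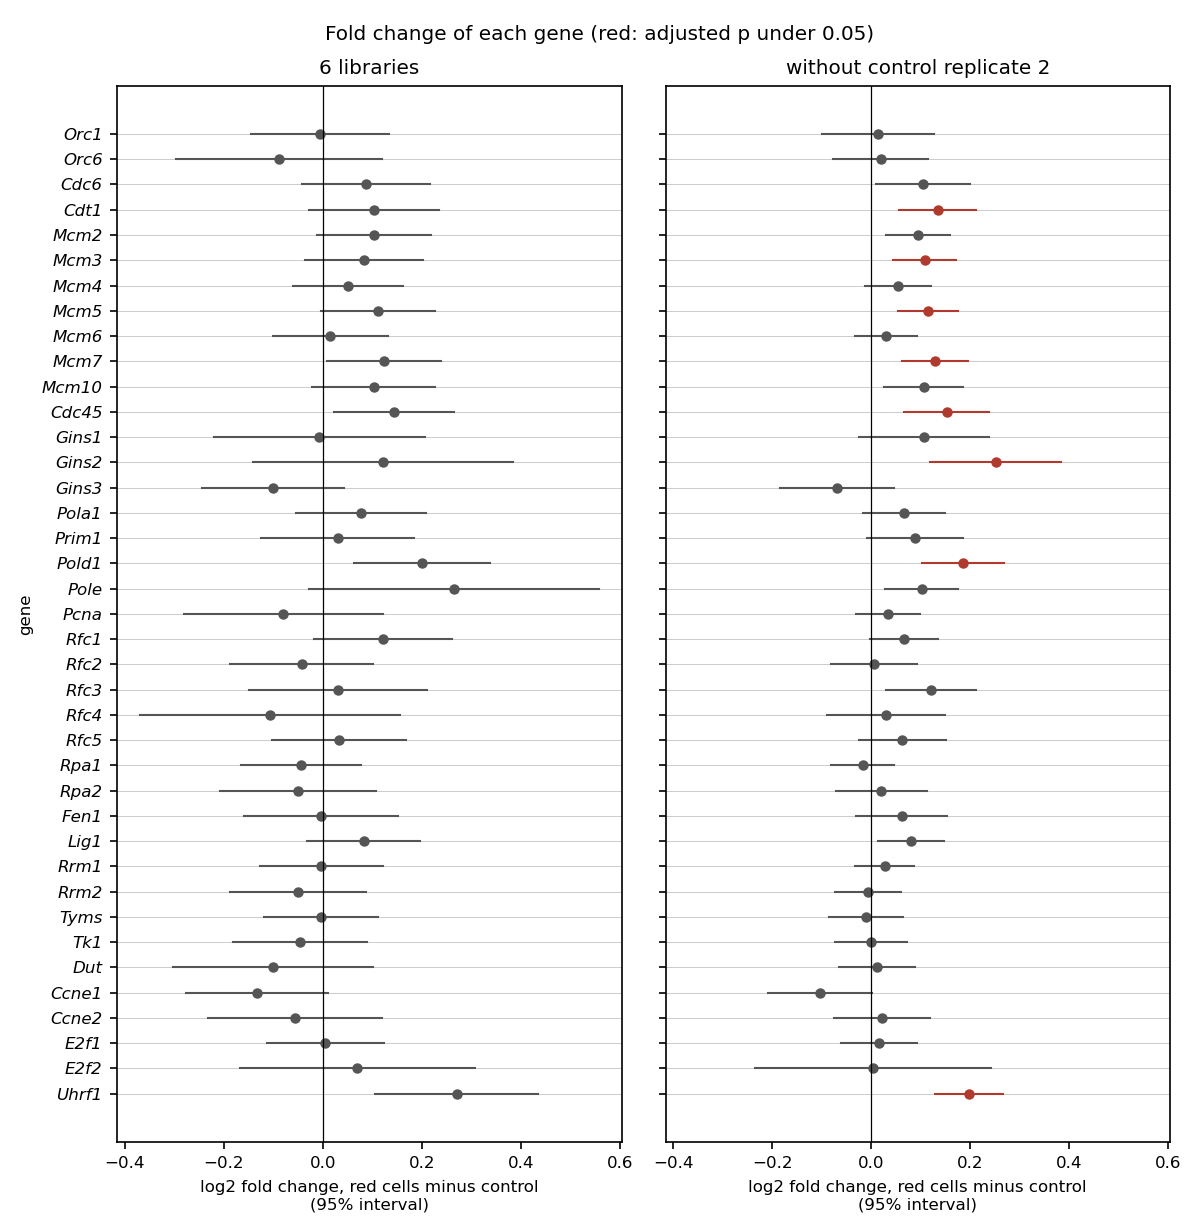
Log2 fold change (treated minus control) of each replication gene with its 95% interval, from all 6 libraries and without control replicate 2, ordered by role, with called genes in red. With all 6 libraries 0 members are called; without control replicate 2 the intervals are narrower and 8 genes are called, all to the right of 0.

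The position of control replicate 2 among the members followed gene length. In the 12 members with gene models under 2000 bases it was above the mean of control replicates 1 and 3 in 12, by a median of 0.23 on the log2 scale, and it was above that mean in 6 of 6 members of 2000 to 3000 bases. It was below in 4 of 4 members of at least 5000 bases. Across the 39 members the log2 difference of control replicate 2 had a Pearson correlation of -0.807 and a Spearman correlation of -0.853 with log2 gene model length, a description over genes that share the same libraries. Over 11193 tested genes the values were -0.577 and -0.658. The same correlations across the members were 0.088 and 0.157 for control replicate 3 against replicate 1, and 0.053 and 0.092 for the treated mean against control replicates 1 and 3. Short members such as Gins2 (1038 bases), Rfc4 (1216 bases), Pcna (1260 bases) and Orc6 (1654 bases) were high in that control, and the longest, Pole (7129 bases), was low. Of the 39 members, 11 went from a negative to a positive log2 fold change without that control and 0 the other way. What made control replicate 2 differ by length was not tested.

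**Figure D4:**
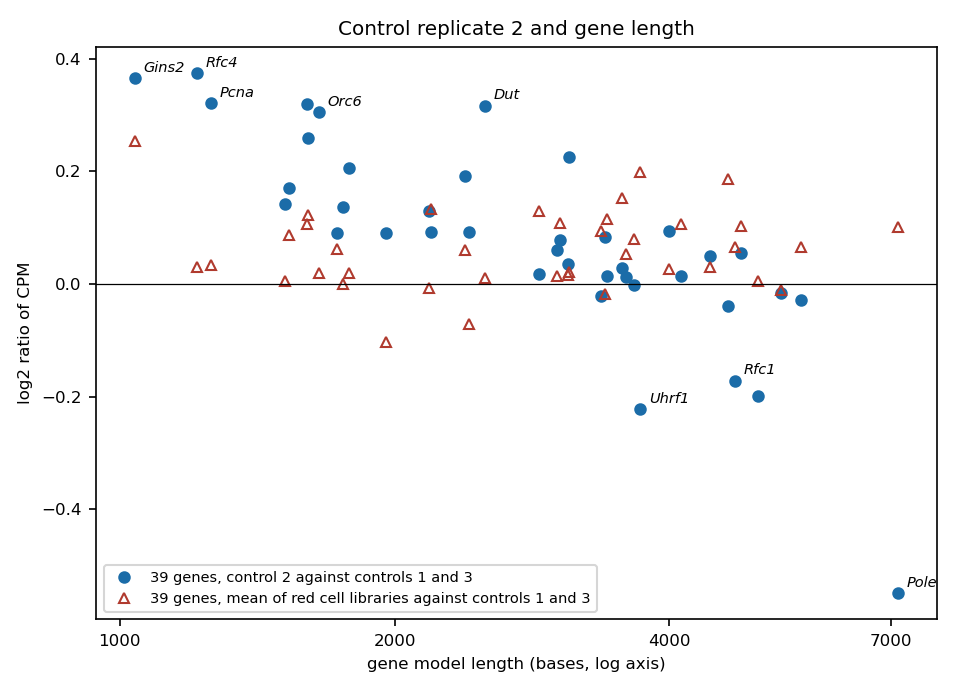
Log2 difference from the mean of control replicates 1 and 3 against gene model length in bases (log axis) for each replication gene, for control replicate 2 and for the treated mean. Control replicate 2 falls from short to long genes (Pearson correlation -0.807), whereas the treated mean shows no such slope (0.053) and lies above 0 in most genes.

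Of 88 other genes of the same pathway, 83 had enough counts to be tested. With all 6 libraries 0 of 83 were called (8 higher and 1 lower at an unadjusted p under 0.05), DESeq2 called 1 and limma voom with sample weights 4. Without control replicate 2, 4 rose and 1 fell, 6.02% of those tested, against 7.96% of all tested genes called in either direction. Their median log2 fold change was 0.04, with 58 above 0 and 25 below. Of the 5 genes, Cdk6, Myc and Cdkn1b belong to the list of G1/S control, in which 3 of 24 tested genes were called, with a median of 0.02 and 14 above 0 against 10 below. Cdk6, a kinase that acts with D cyclins on the retinoblastoma protein, was at 59.0, 43.6 and 60.8 CPM in the controls and at 72.4, 78.2 and 77.2 CPM after treatment, with a log2 fold change of 0.34 ± 0.05 (adjusted p = 1.6e-07). Myc, a transcription factor that drives growth and cycle entry, was at 147.2, 165.0 and 151.3 CPM against 176.8, 166.4 and 174.0 CPM, with a log2 fold change of 0.21 ± 0.04 (adjusted p = 2.7e-05). Cdkn1b, the inhibitor p27 of cyclin E complexes, was at 41.2, 38.8 and 38.4 CPM against 32.8, 35.8 and 33.2 CPM and fell by 0.23 ± 0.06 on the log2 scale (adjusted p = 0.0070). The control and treated libraries did not overlap in these 3 genes, nor in Clspn and Dctd, and in Myc the nearest ones were at 165.0 and 166.4 CPM. Over all tested genes, the treated libraries lay above all controls in 10.4% and below all in 9.19%. Clspn, a fork protein that carries the checkpoint signal to Chk1, and Dctd, the dCMP deaminase that feeds thymidylate synthesis, had log2 fold changes of 0.14 (adjusted p = 0.0156) and 0.24 (adjusted p = 0.0097). Neither Clspn nor Dctd was called by DESeq2 (adjusted p = 0.1415 and 0.1811), and Cdkn1b was not (0.1538). Leaving out control replicate 1 as well ended the calls of Clspn (adjusted p = 0.4659), Dctd (0.0512) and Cdkn1b (0.1926).

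No further gene of these lists was called. Of the genes that act on new chromatin, Cdca7 had a log2 fold change of 0.13 (adjusted p = 0.0559), Chaf1a 0.11 (0.0631) and Nasp 0.09 (0.0805). The firing factors Mtbp and Topbp1 had log2 fold changes of 0.12 and 0.10 (adjusted p = 0.0581 and 0.0594). Of the further genes for polymerases, loaders and strand maturation, Dscc1 had a log2 fold change of 0.19 (adjusted p = 0.1248), Pold3 0.11 (0.2269) and Dna2 0.14 (0.2292). In the checkpoint list, the highest ranked were Usp1, Atr and Rad17 with adjusted p from 0.2818 to 0.3365. Genes of mitosis gave 0 calls of 20 in both comparisons. Of all tested genes, 1.46% were called with all 6 libraries and 7.96% without control replicate 2, so 0 of 20 lies near these shares. At an unadjusted p under 0.05 the mitosis genes gave 0 and 2, against 1120 of 11208 and 2187 of 11297 tested genes. Their medians were 0.01 and 0.0071, and the smallest p was that of Top2a (log2 fold change 0.08, adjusted p = 0.0740 without control replicate 2). The difference between replication and mitosis genes was not tested.

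Summed levels of some marker lists differed between the groups, and those of others overlapped. The 8 listed erythroid genes, the haemoglobin chains among them, summed to 2.88 to 3.64 CPM in the controls and 537.6 to 623.3 CPM in the treated libraries. The 10 listed leukocyte markers summed to 42.2 to 48.7 CPM in the controls and 48.5 to 53.6 CPM after treatment, mostly from Csf1r and Cd68, which did not pass in either comparison. Ptprc, the leukocyte surface phosphatase, had 0 counts in each control and 12, 13 and 11 counts in the treated libraries, and the macrophage gene Adgre1 had 0 counts in each control and 16, 15 and 17. Such genes reached the count filter only through the treated libraries, so no count of calls is given for these 2 lists. The 7 listed lymphatic endothelial markers summed to 399.6 to 502.6 CPM in the controls and 562.1 to 594.1 CPM after treatment, and of the 4 testable ones 2 were positive and 2 negative in both comparisons. Stab1 was called higher in both (log2 fold change 0.90 without control replicate 2), whereas Nrp2 was called higher (0.26, adjusted p = 3.8e-08) and Nr2f2 lower (-0.15, adjusted p = 0.0041) only without control replicate 2, and Flt4 did not pass (-0.20, adjusted p = 0.6046). The 6 listed epithelial and mesothelial markers summed to 644.7 to 722.4 CPM in the controls and 601.5 to 623.1 CPM after treatment. Krt8 and Krt18 did not pass with all 6 libraries and were called lower without control replicate 2 (adjusted p = 0.0016 and 2.3e-05). The general endothelial markers summed to 107.1 to 118.9 CPM in the controls and 112.0 to 114.2 CPM after treatment. The fibroblast and mural markers summed to 442.1 to 491.8 CPM in the controls and 451.2 to 469.1 CPM after treatment, mostly from Col1a2. Without control replicate 2, Pdgfra was called higher (log2 fold change 0.46, adjusted p = 0.0013) and Col1a2 lower (-0.10, adjusted p = 0.0428). Neither passed with all 6 libraries (adjusted p = 0.0536 and 0.7735). Pdgfrb, tested only without control replicate 2, did not pass (-0.62, adjusted p = 0.5030). Leaving the erythroid genes out before scaling gave 0 member calls with all 6 libraries and the same 8 without control replicate 2. The part of RNA from added cells in the levels of the replication genes was not tested.

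Exons of 11 members overlap exons of another listed gene on the opposite strand in the GENCODE M21 annotation (GRCm38), among them 3 of the called genes: Cdc45 with Ufd1, Gins2 with Gse1, and Mcm7 with Ap4m1 and Cops6. The library kit keeps the strand, but the strand setting of the counting is not given in the sources used here, so the values of these 3 are less certain than those of Mcm5, Pold1 and Uhrf1.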

How the data were processed

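RNA of 6 libraries was extracted with TRIzol and prepared with a stranded poly(A) kit, per the labels' protocols. The submitters' processing notes name the build GRCm39. Which aligner, counting tool, strand setting and annotation were used is not given in the sources used here. The authors deposited raw counts for 15528 gene symbols and FPKM values, which are the same counts rescaled by library and gene model length (largest relative departure 3.4e-08 over 10882 genes), so they are no independent check. Gene model length was computed from their ratio.

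Groups and replicate numbers came from the sample titles. Counts were filtered with filterByExpr (minimum count 10, minimum total 15), scaled by TMM and tested in edgeR 4.0.16 (R 4.3.3) with glmQLFit and glmQLFTest on all genes, two-sided, with Benjamini-Hochberg adjustment. Intervals are at 95%, and errors of fitted log2 fold changes are standard errors. Scripts were tested on simulated data. Alternatives were other scalings and filters, DESeq2 1.42.0, limma 3.58.1 (voom, and log2(FPKM + 1) or log2(FPKM + 0.1), filtered at a mean of 1 FPKM or none), a length and GC offset, the replicate number as a block, and each library left out. Further libraries left out beside control replicate 2 were added after the data had been seen. Per-library values are printed for members called in either comparison, for the smallest p of each role and for the 3 highest and 3 lowest FPKM levels. Values of Pole and Orc6 are given as well, because control replicate 2 stood apart in them. Other pathway and mitosis genes are named from the smallest p without control replicate 2. The members and all lists were chosen with earlier results of these data known.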

Additional observations from a re-analysis of the deposited data

How the results depend on the processing

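The absence of calls among the members with all 6 libraries held under other scalings and filters, DESeq2, limma voom and FPKM. Limma voom with sample weights called 3, the length and GC offset called 1, and leaving out 1 library called 0 to 8, the 8 arising without control replicate 2. Over all tested genes, sample weights called 3.23% higher and the length and GC offset 1.86%. Of the other pathway genes, DESeq2 called 1, sample weights 4, the length and GC offset 1, and leaving out 1 library 0 to 5. Without control replicate 2, the 8 members called became 5 with DESeq2, 1 with limma on log2 FPKM at either pseudocount, 0 with FPKM and no filter, and 4 to 8 with a further library left out (4 without control replicate 1). The length and GC offset gave 10, adding Mcm2 and Pole, with 4.63% of all tested genes called higher. The 5 other pathway genes became 2 with DESeq2, 9 with the length and GC offset, and 2 to 8 with a further library left out. No member was called lower under any of these alternatives.

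Some uncalled log2 fold changes changed sign. With all 6 libraries they were -0.0065 for Orc1 and -0.0040 for Rrm1, and further from 0 for E2f2 (0.07), Pcna (-0.08) and Dut (-0.10). With sample weights the value was -0.0033 for E2f2, 0.0049 for Orc1, 0.0225 for Rrm1 and 0.0228 for Pcna, and with the length and GC offset it was 0.0086 for Orc1. With 1 library left out, the range was -0.1675 to 0.0118 for Dut, -0.0368 to 0.0335 for Orc1, -0.0217 to 0.0267 for Rrm1 and -0.1348 to 0.0344 for Pcna. For Dut and Pcna, leaving out control replicate 2 was the only omission of 1 library that gave a positive value. Why the values changed sign was not tested. The labels do not say whether libraries of the same replicate number are paired. Correlations of their deviations from the group mean over 7058 genes were -0.096, 0.045 and 0.152. For libraries of different numbers they ran from -0.120 to 0.069. With 3 libraries in a group these deviations depend on each other, so the values cannot settle pairing. With the replicate block, 0 members were called with all 6 libraries and 8 without control replicate 2, and over all genes with 6 libraries 113 were called higher and 13 lower, against 130 and 34 without it. The block ended the call of Clspn (adjusted p = 0.0688). The median half-width of the members' 95% intervals was 0.14 on the log2 scale with all 6 libraries and 0.08 without control replicate 2. Differences below these widths were mostly not detectable, and the adjusted threshold left some larger ones uncalled. Examples are Uhrf1 at 0.27 with all 6 libraries and Rfc3 at 0.12 without control replicate 2.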
